A study of Saccharomyces cerevisiae with 96 samples.

Results

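The 66 genes described here are measured members of chromosome I, the smallest chromosome of budding yeast. They were chosen by their table names (YAL for the left arm, YAR for the right arm) and by a mean of no less than 10 RPM (reads per 1000000 counted reads) over the 48 columns of the expression table, with blank cells counted as 0. The table lists 125 such names among 6701 genes. Of these, 74 reached the mean of 10 RPM, 51 did not, and 8 of the 74 were left out by the rule, which left 50 genes of the left arm and 16 of the right arm. The same rule singled out the columns of evolved populations 7 and 12 as low for this chromosome, so the low level there is given as a description without a test. Just inside the threshold were PRM9 at 10.1, FRT2 at 10.6 and LTE1 at 11.8 RPM on average, and just outside it were YAL037C-A at 9.90, YAL045C at 9.90 and YAL037W at 6.84 RPM.

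A yeast nucleus carries its genes on 16 chromosomes, and a cell that holds fewer or more copies of a chromosome than of the others usually makes mRNA of its genes in rough proportion. Chromosome I is best known for genes of the cell cycle, of transcription and of membrane traffic in its central part, and for gene families near its ends, such as the DUP240 membrane protein genes, whose presence differs between strains. DNA copy number was not measured in these samples.

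RNA was sequenced from 12 *S. cerevisiae* wild type strains, YPS1009, T73, T7, Y12, YJM269, PW5, CLIB215, CLIB324, CBS7960, EC1118, BY4743 and SK1, numbered 1 to 12 in that order, and from the population grown from each for 300 generations in rich medium with xylulose. Both were sampled on glucose and on xylulose, a pentose sugar that yeast takes up into the pentose phosphate pathway. This gave 4 groups of 12 columns, and each column is described as the authors' average of 2 repeats, whose spread is therefore unknown. An evolved sample is a mixed population rather than a clone, with 1 population for each strain. The implied depth could be read from the steps between low values in 17 columns, where it lay between 253336 and 1114087 reads with a median of 680944, so that 10 RPM, the value under which cells are blank, stands for 6.81 reads at the median. Glucose evolved 12 was among these, with 680944 reads, while the depth of both columns of evolved 7 and of xylulose evolved 12 is unknown. In these 17 columns 96.9% to 98.6% of the low values lay on the step, against 0.370% to 38.1% in the other columns, and whether the 17 are averages of 2 libraries, pooled reads or a single library is not known. Blank cells were set to 10 RPM, and 23 members had a value in every column.

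The labels of the evolved columns were compared with the wild type by means of 58 genes off chromosome I whose levels are typical of a strain on both media. For 8 of the 12 numbers the evolved columns resembled another wild type number than their own: evolved 5 to 8 resembled wild type 9 to 12, and evolved 9 to 12 resembled wild type 5 to 8. This holds for the mean over both media. On xylulose by itself the closest wild type was the same for all 12 numbers, and on glucose for 9 of 12, the exceptions being evolved 1, 6 and 12. The mean correlation across these genes was 0.71 with the resembling number and -0.09 with the same number, against 0.61 for the 4 other numbers. Evolved 7, labelled CLIB215, resembled wild type 11, BY4743 (r = 0.84, against 0.14 for its own number). Evolved 12, labelled SK1, resembled wild type 8, CLIB324, less clearly (r = 0.44, against -0.15). The correlation was 0.52 on xylulose, but on glucose it was 0.36, below the 0.37 of wild type 7, so the match of evolved 12 is weak. LEU2, a leucine synthesis gene that the BY4743 laboratory strain lacks, was blank in wild type 11 and evolved 7 on both media and had a value in every other column. URA3, which that strain also lacks, was blank in both columns of wild type 11 and in evolved 7 on xylulose, but stood at 13.3 RPM in evolved 7 on glucose. HIS3 had values in wild type 11 (167.3 and 133.5 RPM) and in evolved 7 (82.9 and 122.3 RPM). These correlations are descriptions across 58 genes that share their libraries. Levels are therefore given relative to the mean of all 12 wild type columns, and also relative to the wild type of the same number and of the resembling number.

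The chromosome I genes stood low in all 4 columns of evolved 7 and 12. The level of a column is the median over the members of the log2 difference from the mean of the 12 wild type columns on the same medium, less the same median over all 5129 tested genes, those that average 10 RPM or more. It was -0.60 in evolved 7 on glucose and -0.81 on xylulose, which is 65.9% and 57.0% of the reference. In evolved 12 it was -1.20 on glucose and -0.88 on xylulose, or 43.6% and 54.5% of the reference. The other 10 evolved populations ranged from -0.20 to 0.08 on glucose (median -0.07, SD 0.09) and from -0.24 to 0.01 on xylulose (median -0.10, SD 0.08). The wild type strains ranged from -0.18 to 0.29 on glucose (SD 0.14) and from -0.10 to 0.08 on xylulose (SD 0.05). No other column overlapped with the 4 low columns. Of the remaining 10 evolved columns on each medium, 9 were below 0. The lowest on xylulose were evolved 8 at -0.24 and evolved 1 at -0.21, and the lowest on glucose was evolved 11 at -0.20. In evolved 8 on xylulose 55 of the 66 members were below the reference, beside 50% of all tested genes.

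**Figure D1:**
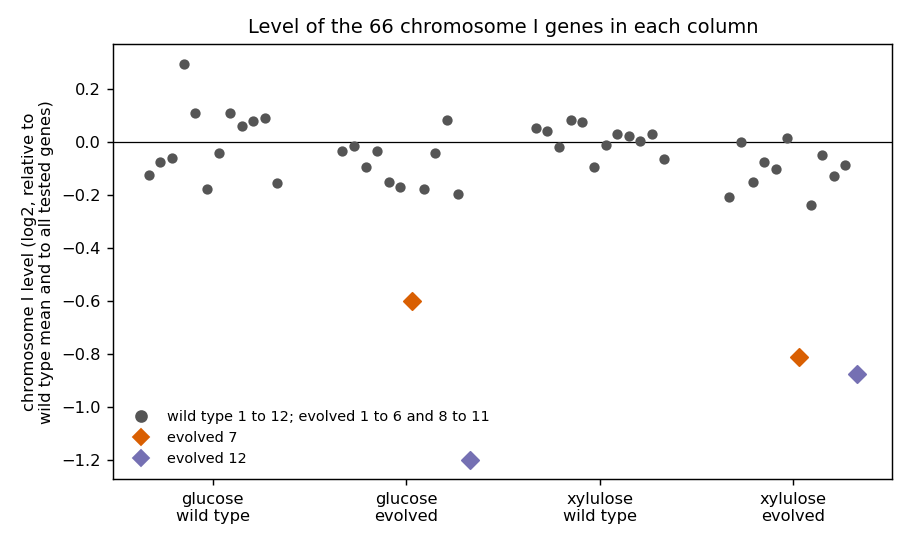
Level of the 66 chromosome I genes in each of the 48 columns (y axis, log2, relative to the mean of the wild type columns on the same medium and to all tested genes; x axis, medium and population, each point 1 column). The diamonds, evolved 7 and 12, lie between -0.60 and -1.20, and the circles, all other columns, between -0.24 and 0.29.

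Another wild type reference changed the size of these levels and not their sign. Against the wild type column of the same number, evolved 7 was at -0.51 on glucose and -0.72 on xylulose, and evolved 12 at -1.06 and -0.90. Against the wild type number that the strain-typical genes resembled, evolved 7 was at -0.62 and -0.86, and evolved 12 at -1.24 and -0.96. The lowest of the other evolved columns under either reference was at -0.40, so the low columns did not overlap with the others. Summed over the members, evolved 7 had 2825 RPM on glucose and 2742 RPM on xylulose, and evolved 12 had 1765 and 2518 RPM. The other evolved columns held 4399 to 8648 RPM on glucose and 4445 to 9679 RPM on xylulose, and the wild type columns 4049 to 10270 and 5242 to 10010 RPM, above the low columns throughout. The upper limits rest on YAR068W, which is high in 1 pair of numbers. Without it they were 5250 and 6359 RPM for the other evolved columns and 5875 and 6384 RPM for the wild type.

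The shift was shared by nearly all members and was not carried by a few of them. In evolved 7, 62 of the 66 members lay below their reference on glucose and 65 on xylulose, and in evolved 12, 60 and 64 did. By the centring, as many of all tested genes lay above their reference as below it. There were 56 members below the reference in all 4 columns, 8 in 3 of them and 2 in fewer. More than 0.5 below the reference were 38 members in evolved 7 on glucose, 50 on xylulose, and 55 and 54 in evolved 12, where 17.5%, 14%, 25.3% and 11.7% of all tested genes were. The spread of the members about their shifted median was close to that of other genes. Their interquartile range was 0.70 in evolved 7 on glucose and 0.66 on xylulose, and 0.93 and 0.64 in evolved 12, beside 0.69, 0.57, 0.97 and 0.49 over all tested genes.

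A stricter description counts members below every one of the 22 other columns on the same medium. There were 4 of 66 in evolved 7 on glucose, where 0.643% of all tested genes were that low, and 24 of 66 on xylulose, beside 2.22%. In evolved 12 there were 14 of 66 on glucose, beside 2.85%, and 27 of 66 on xylulose, beside 1.91%. A gene that is blank in another column cannot be the lowest, which left 30 members that could be on glucose and 48 on xylulose. In no case was a member above all 22 other columns, although 0.76%, 1.42%, 2.77% and 1.89% of all tested genes were, in the same order of columns. As these columns were chosen for being low, nothing is read from these counts.

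The other 15 chromosomes stayed near 0 in the same columns. In evolved 7 their medians lay between -0.04 (chromosome VIII) and 0.05 (XIV) on glucose and between -0.04 (VI) and 0.06 (III) on xylulose. In evolved 12 the range was wider, from -0.19 (III) to 0.24 (VII) on glucose and from -0.11 (III) to 0.20 (VII) on xylulose. Chromosome I was thus the lowest chromosome in each of the 4 columns, by a margin of over 0.5 on the log2 scale. Evolved 12 also had its highest median on chromosome VII on both media. Here chromosome I stands for the 66 members, without the 8 genes left out, and each other chromosome for all its tested genes.

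**Figure D2:**
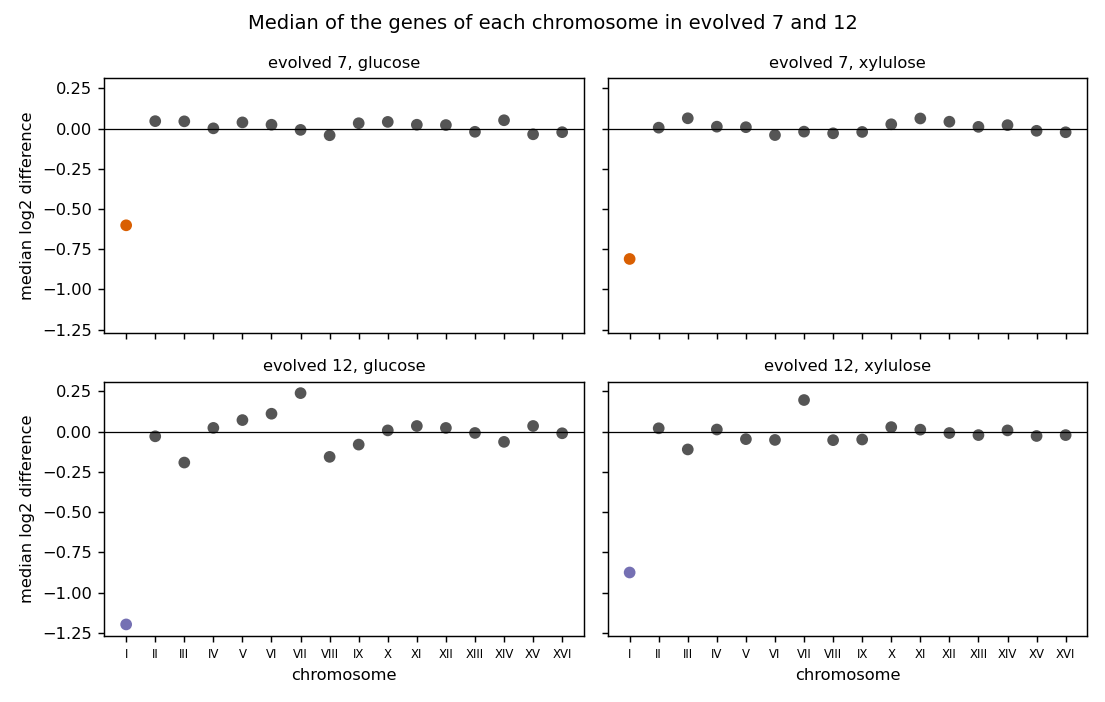
Median log2 difference from the wild type mean (y axis, relative to all tested genes) of the genes of each of the 16 chromosomes (x axis) in the 4 columns of evolved 7 and 12, 1 panel a column. The coloured point is chromosome I (the 66 members), at -0.60, -0.81, -1.20 and -0.88. The grey points are the other 15 chromosomes (all their tested genes), between -0.19 and 0.24.

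The low level ran along the whole measured chromosome. The 65 members found in the R64 annotation extend from BDH2 (chrI:33448-34701), a probable diol dehydrogenase gene, to YAR068W (chrI:222406-222891), a gene of unknown function, on a chromosome of 230218 bases. Split into 5 stretches of equal length with 6, 20, 21, 11 and 7 members from left to right, the median level was below 0 in each stretch and each column. In evolved 7 the stretches had medians between -0.91 and -0.35 on glucose and between -1.20 and -0.58 on xylulose. In evolved 12 they lay between -1.61 and -0.88 on glucose and between -1.01 and -0.59 on xylulose. No stretch was free of the shift, and the order of the stretches differed between the columns. Across the 65 members the correlation of the difference with position was -0.15, 0.09, 0.09 and 0.09 in the 4 columns. Both arms shared the shift, with medians on xylulose of -0.83 (left) and -0.67 (right) in evolved 7 and of -0.98 and -0.69 in evolved 12.

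**Figure D3:**
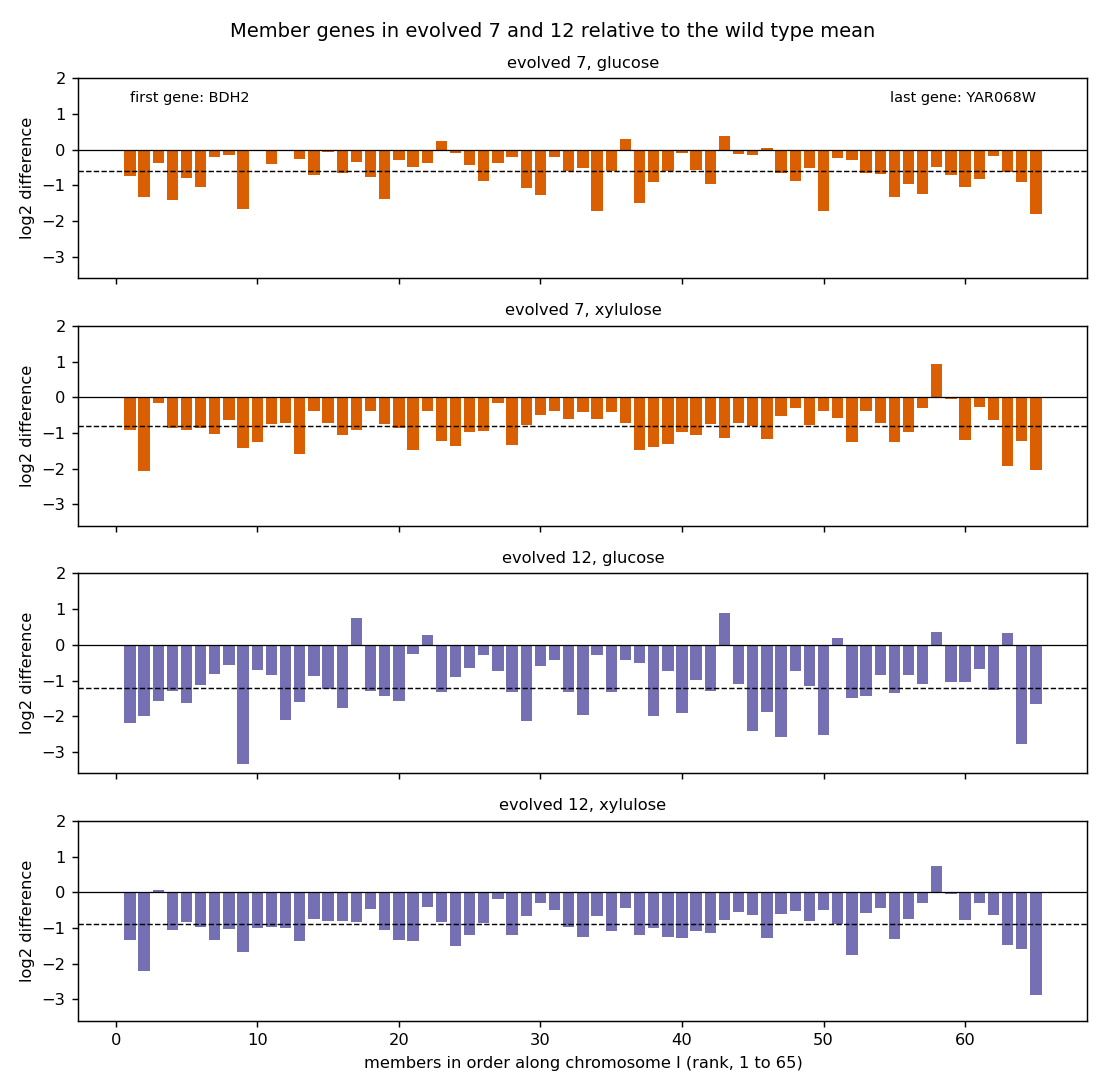
Log2 difference of each of 65 members from the wild type mean (y axis, relative to all tested genes), in their order along chromosome I (x axis, rank from BDH2 to YAR068W), in the 4 columns of evolved 7 and 12. Nearly all bars point down over the whole length, and the dashed line is the level of the column, -0.60, -0.81, -1.20 and -0.88 from top to bottom.

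Averaged over the 4 columns, the difference of a member had a median of -0.89, with quartiles of -1.07 and -0.67 and a range from -2.10 to 0.39, and 53 members lay between -1.5 and -0.5. The differences of the members were weakly correlated between the media. Across the 66 members the correlation of the differences on glucose and on xylulose was 0.10 in evolved 7 and 0.30 in evolved 12. The spread between repeats is unknown, so a difference between the media and measurement noise cannot be told apart. More abundant members showed the larger deficits, with a correlation of -0.45 between the mean difference and the log2 of the mean RPM. Blanks set at 10 RPM limit how far a scarce gene can fall, and 22 members were blank in evolved 12 on glucose. Over the 34 members with at least 50 RPM the level of evolved 12 was -1.46 on glucose and -1.02 on xylulose.

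The shift crossed all roles. Among 10 genes of cell division and polarity, each was below the reference in each of the 4 columns, with a median mean difference of -0.81. CDC24, the exchange factor that activates the polarity GTPase Cdc42, stood at 46.7 RPM in evolved 7 and 44.3 RPM in evolved 12 on xylulose, below all other columns, which ranged from 52.3 to 130.4 RPM in the wild type and from 47.1 to 92.1 RPM in the evolved populations. MYO4, a myosin motor that carries mRNA into the bud, stood at 33.4 and 35.0 RPM, also below the others, whose lowest value was 36.0 RPM. On glucose both genes overlapped with the other columns.

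Genes of signalling and nuclear transport had the lowest median, -1.18 over 5 members, all below the reference in every one of the 4 columns. TPD3, the scaffold subunit of protein phosphatase 2A, had 103 and 45.0 RPM in evolved 7 on glucose and xylulose, and 44.1 and 58.4 RPM in evolved 12. In the other columns it ranged from 75.3 to 250.9 RPM on glucose and from 91.5 to 160.4 RPM on xylulose. Only evolved 7 on glucose overlapped with that range. PSK1, a PAS domain kinase that directs sugar into storage or wall synthesis, averaged -1.18. Metabolism and transport followed, with a median of -1.04 over 5 members, among them CYS3 of cysteine synthesis, which averaged -1.02.

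Secretory pathway and membrane genes, the largest group with 13 members, had a median of -0.88, and each of them was below the reference in each column except for 1 member in evolved 12 on glucose. PMT2, an O-mannosyltransferase of the endoplasmic reticulum, stood at 97.5 and 76.2 RPM in evolved 7 and 12 on xylulose, where the other columns had 108.2 to 205.2 RPM. ERV46, a cargo receptor of transport vesicles, averaged -0.67 and ERP1, a p24 vesicle protein, -0.38. The 3 genes of DNA replication and repair had a median of -1.01, with RFA1, a subunit of the single-strand binding protein RPA, at -1.20 and the DNA glycosylase NTG1 at -0.98. The 6 mitochondrial genes had a median of -0.83 and the 4 genes of RNA processing of -0.78. Transcription and chromatin, with 6 members, and translation and ribosome synthesis, with 4, had medians of -0.70 and -0.69. The smallest median was that of the subtelomeric and repeated families, at -0.59 over 6 members. In evolved 7 and 12 their medians were -0.76 and -1.04 on glucose, but -0.28 and -0.29 on xylulose. On xylulose the wild type medians of KTD1 and PRM9 lay at the floor of 10 RPM, which limits how far these genes can fall.

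There were 3 genes below all 22 other columns in each of the 4 columns of evolved 7 and 12. BDH1 (chrI:35155-36303), the butanediol dehydrogenase, had 233.6 and 220.3 RPM in evolved 7 on glucose and xylulose and 135.1 and 200.5 RPM in evolved 12. The other columns ranged from 250.4 to 1079 RPM on glucose and from 429.1 to 1645 RPM on xylulose. AIM2 (chrI:51855-52595), a gene of uncertain function, had 35.4 and 53.1 RPM in evolved 7, was blank in evolved 12 on glucose and had 45.0 RPM there on xylulose, while the other columns ranged from 51.4 to 230.8 and from 92.7 to 304.9 RPM. FUN12 (chrI:76427-79435), the translation initiation factor eIF5B, had 90.5 and 151.2 RPM in evolved 7 and 79.3 and 124.7 RPM in evolved 12, against 153.9 to 282.5 and 181.9 to 364.8 RPM elsewhere. Their mean differences were -1.90, -2.02 and -1.15, all below the lower quartile of the members, -1.07. Counting these, 35 members were lowest in at least 1 of the 4 columns, and 31 in none. Only 30 members on glucose and 48 on xylulose could be the lowest, because of blanks in other columns. The counts of 3, 35 and 31 were not made over all tested genes, and nothing is read from them.

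**Figure D4:**
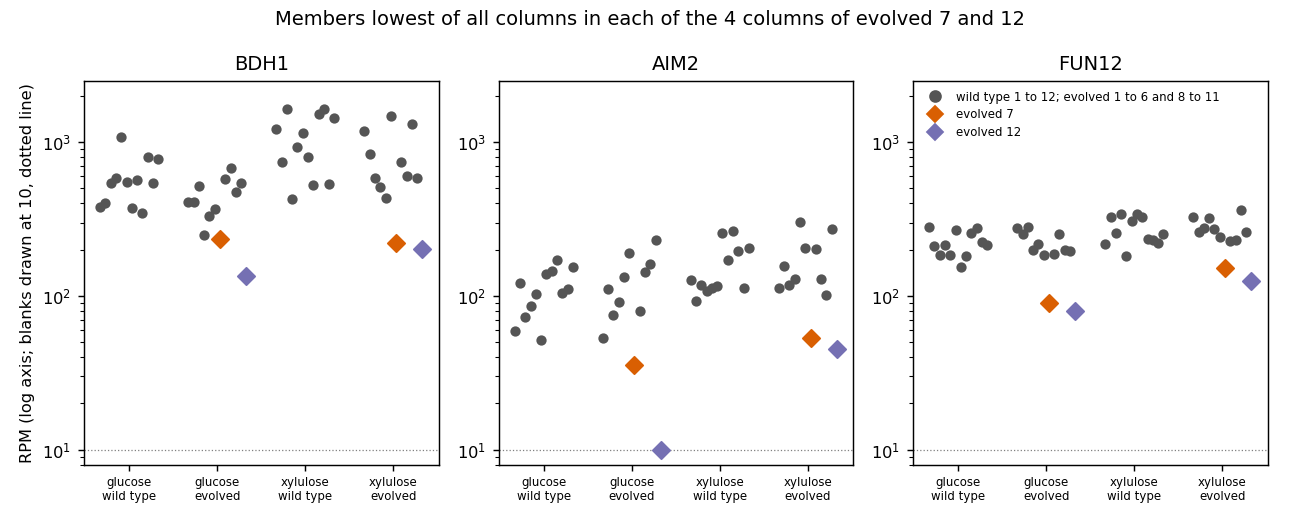
RPM of BDH1, AIM2 and FUN12 (y axis, log scale, blank cells drawn at 10 RPM on the dotted line) in each column (x axis, medium and population). The diamonds of evolved 7 and 12 lie below every circle of the same medium in all 3 genes.

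The genes that shifted least against the mean of the 12 wild types were UIP3 at a mean difference of 0.39, SWC3 at -0.16 and POP5 at -0.22. UIP3, a DUP240 membrane protein gene, had 30.5 and 53.2 RPM in evolved 7 and 49.9 and 47.1 RPM in evolved 12. On glucose these values lay within the range of the other columns. On xylulose they lay within that of the wild type, 11.1 to 94.6 RPM, but above the 45.9 RPM of the highest other evolved column. UIP3 differs between strains, so its difference depends on the reference. Wild type 11, which evolved 7 resembled, had 155.2 and 94.6 RPM on glucose and xylulose. Wild type 8, the weak match of evolved 12, had 87.5 and 47.7 RPM. Of the same numbers, wild type 7 had 35.5 and 27.4 RPM and wild type 12 had 24.8 and 17.0 RPM. SWC3, a subunit of the SWR1 chromatin remodelling complex, lay above the reference on glucose and below all other columns on xylulose, at 15.7 and 20.1 RPM. POP5, a shared subunit of the RNA processing enzymes RNase P and RNase MRP, overlapped with the other columns throughout.

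The 8 chromosome I genes that the rule left out were not all below the reference. GCV3 of glycine cleavage, the elongation factor gene EFB1 and the purine synthesis gene ADE1 were below the reference in all 4 columns, with mean differences of -0.97, -0.92 and -0.79. The acetyl-CoA synthetase gene ACS1 (-0.72) and the pyruvate kinase gene CDC19 (-0.52) were below it in 3. The remaining 3 averaged close to 0 or above it, with -0.13 for the chaperone gene SSA1, 0.23 for the glutamate dehydrogenase gene GDH3 and 0.32 for the acid phosphatase gene PHO11. SSA1 on glucose stood at 661.2 RPM in evolved 12, below the 1198 to 5461 RPM of the other evolved columns, and at 1400 RPM in evolved 7, within their range. GDH3 was blank in 9 of the 12 wild type columns on glucose, so its reference there lies near the floor of 10 RPM. On xylulose it was below the reference, by -0.38 in evolved 7 and -0.67 in evolved 12. PHO11 stood at 82.5 RPM in evolved 7 on glucose, above the 53.1 RPM of the highest wild type column, and at 23.3 RPM in evolved 12. Both were below the 98.7 to 2887 RPM of the other evolved columns. On xylulose PHO11 was blank in both, in 8 wild type columns and in the other 10 evolved columns, so it could hardly fall there. With the 8 genes added, the level of evolved 12 on glucose was -1.09.

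Some members varied between strains by more than the shift described above. YAR068W had the widest range, with 4398 RPM in wild type 5 on glucose and 4357 RPM on xylulose, and 3398 and 4325 RPM in evolved 9. In the remaining wild type columns it reached at most 251.3 RPM on glucose and 340.4 RPM on xylulose, and it was blank in 15 of the 48 columns. The 2 high numbers are a pair that the strain-typical genes put together. Its mean difference of -2.10 in evolved 7 and 12, the largest of all members, is thus measured against a wild type mean that contains this strain. Over the 12 wild type columns its SD was 2.79 on glucose and 2.55 on xylulose on the log2 scale. DFP2 and UIP3 also differed between strains in the same way on both media, with correlations of 0.72 and 0.80 across the 12 wild types.

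A second copy limits what the YAR068W value stands for. Of the 65 members searched in the S288c genome (R64), 2 matched elsewhere over at least 50 bases at 95% identity or more. MST28 matched MST27 on chromosome VII at 98.0%, and YAR068W matched a stretch of chromosome VIII (chrVIII:543008-543493, with no gene in the annotation used) over all 486 bases at 99.8%. The 2 copies differ by G182A, counted from 1 at the first base of the gene: YAR068W has G and the copy has A. The windows about that base, chrI:222562-222612 and chrVIII:543164-543214 on the plus strand, are shown because a read identifies its copy only where it covers the capital letter, and reads from elsewhere in the gene cannot be told apart.
YAR068W: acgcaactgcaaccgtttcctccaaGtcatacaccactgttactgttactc
chromosome VIII copy: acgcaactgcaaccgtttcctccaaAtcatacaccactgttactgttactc

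YAL026C-A, the member without an entry in the annotation used, followed the flippase gene DRS2, with a correlation of 0.97 over the 48 columns and a median difference of -0.19 on the log2 scale. The strand of counting is not stated, and DRS2 also overlaps the noncoding gene HRA1 on the opposite strand over 393 bases. The values of these genes are not independent.

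The difference between evolved and wild type in the other 10 populations was tested with limma over all 5129 genes. These are the populations left after the rule had set the low ones aside. The count of lower members among them is therefore not independent of the rule, and a count of 0 is no evidence about evolved populations in general. No member passed the threshold (Benjamini-Hochberg adjusted p under 0.05) on either medium. On glucose 0 of 66 were higher and 0 lower, beside 3.12% and 0.136% of all tested genes, and 2 members had an unadjusted p under 0.05, as had 957 of the 5129 genes (18.7%). On xylulose again 0 were higher and 0 lower, beside 0.273% and 1.87%, and 8 members had an unadjusted p under 0.05, as had 760 of all genes (14.8%). The members had a median difference of 0.14 on glucose, where all genes had 0.20, and of -0.12 on xylulose, where all genes had -0.02. On xylulose 50 of the 66 members were below 0. This was not counted over all tested genes, whose median was also below 0, and nothing is read from it. The spread between 12 and 10 columns from different strains is wide, and a smaller shared difference in these populations was not detectable gene by gene.

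Growth on xylulose changed a part of the members in the wild type, with 16 higher and 5 lower than on glucose by limma on the differences within each of the 12 strains. Over all tested genes 30.7% were higher and 8.87% lower, and the members' median of 0.30 was that of all genes, 0.31. The median response of chromosome I was thus that of the genome. In the evolved populations 9 members were higher and 9 lower, beside 24.4% and 15.2% of all tested genes, with medians of 0.05 and 0.08. Without the block on the strain number the evolved counts were 5 and 7 members, beside 1118 and 719 of all 5129 genes, and without evolved 7 and 12 they were 7 and 8, beside 1046 and 763. Scaling by the median of ratios lowered the median of all genes from 0.31 to 0.14 in the wild type and from 0.08 to -0.01 in the evolved populations. The counts of higher and lower members then became 11 and 10 in the wild type and 8 and 12 in the evolved populations. Over all 5129 genes the wild type counts became 1104 and 650, and the evolved counts 1035 and 984. Leaving out wild type 1 raised the wild type count of lower members from 5 to 8, and that of all 5129 genes from 455 to 484.

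Of the 6 mitochondrial genes, 4 rose before evolution and 2 after it, beside 30.7% and 24.4% of all tested genes. FUN14, a protein of the mitochondrial outer membrane, and MDM10, of the sorting machinery in that membrane, did not pass and had ratios of -0.30 and -0.38 in the wild type, and of -0.55 and -0.15 after evolution. BOL3, which helps to insert iron-sulfur clusters into mitochondrial enzymes, had a lowest, median and highest value of 14.9, 32.7 and 114.2 RPM in the wild type on glucose and of 92.3, 131.0 and 178.4 RPM on xylulose. It was higher on xylulose in 12 of 12 strains, by 1.81 ± 0.25 (log2, SE, limma adjusted p = 5.0e-05), and in 12 of 12 evolved populations, by 1.20 ± 0.16 (adjusted p = 8.7e-06). CYC3, the lyase that attaches heme to cytochrome c, had 36.5, 57.4 and 76.6 RPM on glucose and 88.0, 163.3 and 259.1 RPM on xylulose, without overlap. It rose by 1.46 ± 0.24 in the wild type (12 of 12 strains, adjusted p = 0.00019) and by 1.5 ± 0.21 in the evolved populations (11 of 12, adjusted p = 1.9e-05). YAT1, the outer membrane carnitine acetyltransferase, rose by 1.48 ± 0.26 in the wild type (adjusted p = 0.00033) from a median at the floor of 10 RPM to 35.8 RPM, and this value therefore depends on the floor. BOL1, a relative of BOL3, rose by 0.64, a call that was lost in 9 of 18 alternatives.

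Of the 10 cell division and polarity genes, 4 rose in the wild type, namely SPC72, BUD14, KIN3 and MYO4, and 1 fell, the G1 cyclin gene CLN3 (-0.67), numbers near the 30.7% and 8.87% of all tested genes. The call was lost in 9 of 18 alternatives for CLN3 and in 7 of 17 for KIN3. None of the 10 passed the threshold in the evolved populations. For SPC72, the receptor of gamma-tubulin at the spindle pole body, the change of the xylulose/glucose ratio with evolution passed the test itself. It was higher on xylulose by 0.88 in the wild type and had a ratio of -0.14 in the evolved populations, a change of -1.02 ± 0.28 (limma adjusted p = 0.029), with 5 of 12 wild type columns blank on glucose. No other member changed its ratio past the threshold, so 0 were higher and 1 lower, beside 0.136% and 5.42% of all tested genes, and 8 members had an unadjusted p under 0.05, as had 1125 of all genes (21.9%). The SPC72 call was lost without evolved 1, 3 or 8, under log2(RPM + 1), under median-of-ratios scaling and with a replicate block, and the change ranged from -2.40 to -0.90 over the alternatives, the former under log2(RPM + 1). The members' median change of -0.25 was close to that of all genes, -0.20.

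Genes of translation and ribosome synthesis did not pass in the wild type (0 of 4) and rose in 3 of 4 cases in the evolved populations, where 30.7% and 24.4% of all tested genes rose. ECM1, which acts in export of the large ribosomal subunit, rose by 0.89 ± 0.25 (adjusted p = 0.010), RBG1, a ribosome-associated GTPase, by 0.68 ± 0.14 (adjusted p = 0.0010) and FUN12 by 0.37 ± 0.13 (adjusted p = 0.028), the last without a call when evolved 7 and 12 were left out (adjusted p = 0.11). The difference from the wild type did not pass for any of them.

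Most of the 13 secretory pathway genes did not pass. Before evolution 3 rose and 2 fell, beside 30.7% and 8.87% of all tested genes, and after it 1 rose and 3 fell, beside 24.4% and 15.2%. In the wild type the vesicle SNARE gene SNC1 (1.15), DRS2 (0.88) and ERV46 (0.50) rose, and ERP2, another p24 vesicle protein gene (-0.82), and PMT2 (-0.49) fell. In the evolved populations ERV46 rose (0.54), and FRT2 (-0.74), ERP2 (-0.57) and ERP1 (-0.55) fell. ERP2 lost its call in the evolved populations in 11 of 20 alternatives, ERV46 in the wild type in 7 of 19. BDH1 rose in both, by 0.80 ± 0.24 (adjusted p = 0.014, 8 of 12 strains) and 0.70 ± 0.19 (adjusted p = 0.0078, 10 of 12 populations), while its neighbour BDH2 fell in the evolved populations by 1.59 ± 0.37 on the log2 scale (adjusted p = 0.0022), from a median of 72.7 to 13.4 RPM over the 10 populations other than 7 and 12. PEX22, a peroxisomal import gene, also fell there (-0.55).

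Among the single genes of other roles, NTG1 rose in both populations (1.10 and 0.50), SWC3 rose in the wild type (1.15 ± 0.26, adjusted p = 0.0027) and TPD3 fell there (-0.57 ± 0.18, adjusted p = 0.019). SWC3 was blank in 5 of 12 wild type columns on glucose, and its rise was 2.54 under log2(RPM + 1), so its size depends on the floor. AIM2 rose in both (0.51 and 0.63), although the call in the evolved populations was lost without evolved 7 and 12 (adjusted p = 0.067). FUN19, a gene of unknown function, fell in the evolved populations by 0.91 ± 0.19 on the log2 scale (adjusted p = 0.0011). Of the 6 DUP240 family genes, 1 passed as lower before evolution and 3 after it, where 8.87% and 15.2% of all tested genes did. KTD1 fell in both (-0.97 and -0.73), and UIP3 (-1.13 ± 0.30, adjusted p = 0.0057) and MST28 (-0.94) fell in the evolved populations. The ratios of PRM9, DFP1 and DFP2 there were -0.38, -0.40 and -0.08. KTD1 was blank in at least 24 of the 48 columns, as were FRT2 and PRM9, and its falls end at the floor. MST28 had a value in 4 of the 12 evolved columns on xylulose and fell in 8 of 12 pairs, so the size of its fall also depends on the floor. A total of 6 members were higher in both populations, AIM2, BDH1, BOL3, CYC3, ERV46 and NTG1, which is 37.5% of those higher in the wild type and 66.7% of those higher in the evolved populations. Over all tested genes 917 were higher in both, 58.1% and 73.4% of those lists. Lower in both were ERP2 and KTD1, 40% and 22.2% of the lower members, where 307 of all genes were, 67.5% and 39.3% of theirs. These shares are given as a description.

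**Figure D5:**
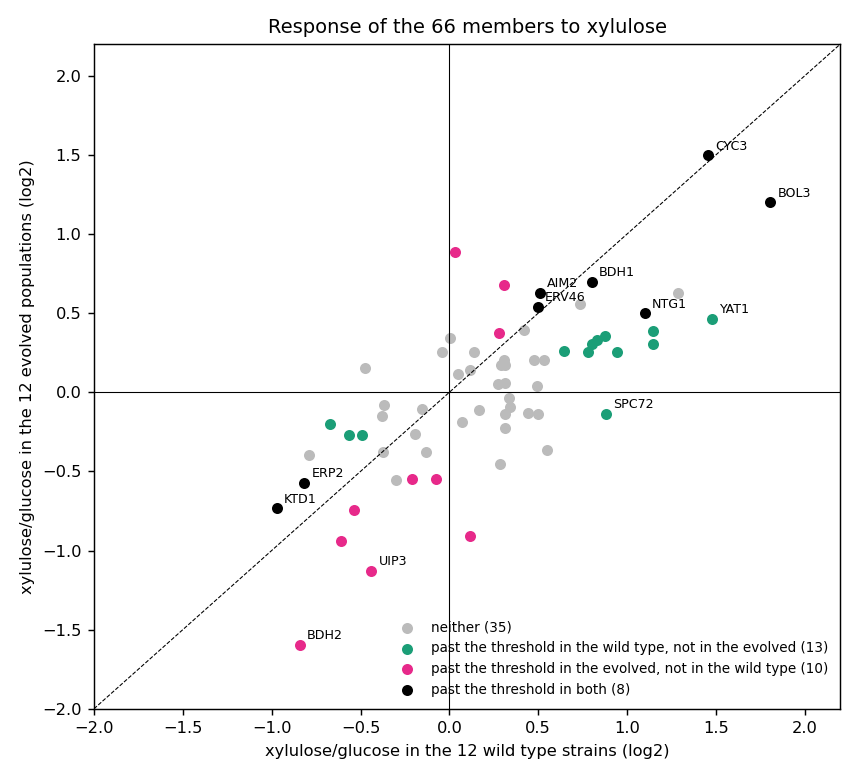
Mean log2 ratio of xylulose over glucose of each of the 66 members in the 12 wild type strains (x axis) and the 12 evolved populations (y axis), each point 1 gene, coloured by where it passed the limma threshold. On the dashed line both ratios are equal. 8 members passed in both fits, 13 in that of the wild type and not of the evolved populations, and 10 the other way round, beside 1243, 789 and 788 of all 5129 genes. Of the 66 members, SPC72 was the 1 whose difference between the populations passed its own test.

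The promoters of 3 of the members that rose in both populations are shown, BOL3 and CYC3 as those that rose most and BDH1 as the most abundant, because the letters CCAAT, bound by the Hap complex that activates respiratory genes off glucose, could be looked for in them. Each runs from 250 bases before to 50 bases after the first base of the start codon, 5′ to 3′ in the sense of the gene, from the RefSeq R64 genome: BOL3 at chrI:57336-57635 on the minus strand, CYC3 at chrI:69476-69775 on the minus strand and BDH1 at chrI:34905-35204 on the plus strand. The BOL3 stretch runs into the neighbouring member BOL1 (chrI:57518-57850), so its part farthest before the start codon is BOL1 gene sequence. Capitals mark CCAAT on either strand (ATTGG where it lies on the other).
BOL3: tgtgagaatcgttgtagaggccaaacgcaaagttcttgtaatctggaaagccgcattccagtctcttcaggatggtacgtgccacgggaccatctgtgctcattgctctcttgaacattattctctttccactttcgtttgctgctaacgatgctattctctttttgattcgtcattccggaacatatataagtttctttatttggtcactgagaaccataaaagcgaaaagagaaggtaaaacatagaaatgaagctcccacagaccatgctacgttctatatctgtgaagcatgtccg
CYC3: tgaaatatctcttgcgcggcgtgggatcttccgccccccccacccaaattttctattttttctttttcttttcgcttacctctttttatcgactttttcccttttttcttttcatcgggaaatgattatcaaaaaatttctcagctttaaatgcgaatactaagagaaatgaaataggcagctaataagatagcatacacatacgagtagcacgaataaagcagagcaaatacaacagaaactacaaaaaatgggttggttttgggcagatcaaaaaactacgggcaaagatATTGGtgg
BDH1: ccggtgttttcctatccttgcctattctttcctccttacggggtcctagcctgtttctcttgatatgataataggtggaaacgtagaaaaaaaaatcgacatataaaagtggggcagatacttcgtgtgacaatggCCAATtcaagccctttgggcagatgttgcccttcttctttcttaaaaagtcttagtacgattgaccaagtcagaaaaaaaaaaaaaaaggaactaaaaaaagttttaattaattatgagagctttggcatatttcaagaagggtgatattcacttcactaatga

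BOL3 had no match, BDH1 had 1 that starts 114 bases before the start codon, and CYC3 had 1 that starts 42 bases after it, within the gene. Matches were found in 2 of the 6 promoters of members higher in both populations, in 25 of the 65 members' promoters (38.5%) and in 43.3% of 6001 promoters of the genome of the same length. The share among the members was below that of all promoters, and a match is only a stretch of letters.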

How the data were processed

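The authors aligned single reads of 50 bases with Bowtie to S288c (R64), left out rRNA reads, collapsed PCR duplicates by molecular identifiers, scaled each library to a fixed total and averaged 2 repeats. The deposited values are log2 RPM, blank under 10 RPM, and on which scale the repeats were averaged is not given in the sources used here. Blanks were set to 10 RPM, which understates the change of scarce genes, and the 5129 genes that average 10 RPM or more were tested. Levels are descriptions without a test. Two-sided tests of single genes used limma 3.58.1 in R 4.3.3, with lmFit and trended eBayes, with Benjamini-Hochberg adjustment over all 5129 genes and a threshold of 0.05. Xylulose/glucose ratios were taken within a strain number, which the labels give to the same strain on both media. Between the media, 7 of 12 wild type and 10 of 12 evolved numbers deviated together (r above 0.1). Evolved/wild type was fitted without pairing and without evolved 7 and 12. The strains were the replicates, so p-values measure the spread between strains. Copies were searched with blastn 2.17.0. The scripts were tested on simulated data.

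Named members are the 2 most abundant of each role list, the up to 6 that rose and fell most in each comparison in 10 or more of 12 pairs, the 3 with the largest and smallest mean deficit, and the 8 genes left out by the rule. Other members named for their role or as part of a counted group were chosen after their values were seen. The members, role lists and tests were chosen with earlier results of these data known. Alternatives were other references, pseudocounts, filters, scalings and pairings, and each strain left out.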

Additional observations from a re-analysis of the deposited data

Results flagged for a closer look

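SPC72 was singled out because its response to xylulose differed between the wild type and the evolved populations by a test of the difference itself. The xylulose/glucose ratio changed by -1.02 on the log2 scale (limma, 2 groups of 12 ratios, adjusted p = 0.029 over 5129 genes). In the wild type on glucose 5 of 12 columns were blank and the highest value was 31.6 RPM, so the gene lies close to the floor of 10 RPM. Leaving out evolved 1 gave -0.91 with an adjusted p of 0.050, and evolved 8 gave -0.96 with 0.059.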

How the results depend on the processing

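None of the 4 low levels turned its sign under the alternatives run, nor did any change of a member that passed the threshold. Changes that did not pass were not followed. Median-of-ratios scaling turned the median of all tested genes from 0.08 to -0.01 for xylulose against glucose in the evolved populations. For evolved against wild type on xylulose it turned that median from -0.02 to 0.01. In all, 279 summary values stayed within the limits set while 37 moved. Against the same-numbered wild type, evolved 7 was at -0.51 on glucose and -0.72 on xylulose and evolved 12 at -1.06 on glucose. Against the resembling wild type, evolved 12 was at -0.96 on xylulose. Against the other 10 evolved columns, evolved 7 and 12 were at -0.51 and -1.10 on glucose. With blanks left missing evolved 12 was at -1.30 and -0.97, with a mean of at least 50 RPM at -1.46 and -1.02, and with genes that have a value in every column at -1.36 and -1.0, where evolved 7 on xylulose was at -0.90. Without centring evolved 7 on glucose was at -0.49, with the 8 genes added evolved 12 on glucose at -1.09, and without the subtelomeric list evolved 12 on xylulose at -0.98. With log2(RPM + 10) the levels on xylulose were -0.70 and -0.74. The cause of these movements was not tested.

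With a minimum of 50 RPM, which keeps 34 members, the lower members numbered 3 before and 3 after evolution, and 0 changed their ratio. Of all 3018 genes kept, 404 and 525 were lower, and the ratio rose in 24 and fell in 187. With genes that have a value in every column, a filter chosen after the data were seen that keeps 23 members, 6 were higher in the wild type, 4 were lower in the evolved populations and 0 changed their ratio. Of all 2528 genes kept, 805 were higher in the wild type and 466 lower in the evolved populations, and the ratio rose in 13 and fell in 91. Median-of-ratios scaling gave 10 lower members in the wild type, beside 650 of all 5129 genes. Without the replicate block the evolved populations had 5 higher members, beside 1118 of all 5129 genes. With a replicate block on the numbers as labelled, or on the resembling numbers, 0 members changed their ratio, as under log2(RPM + 1) and under median-of-ratios scaling. Of all 5129 genes the ratio fell in 169, 157, 153 and 197 under these settings in turn, and rose in 0, 2, 7 and 20. The labelled numbers paired evolved with wild type columns only in part. By the strain-typical genes 4 of 12 numbers resembled their own. Over all tested genes the deviations correlated above 0.1 in 2 of 12 numbers on glucose and 3 of 12 on xylulose. The block left the counts of evolved against wild type at 0. Leaving out each strain in turn gave 13 to 17 higher and 4 to 8 lower members in the wild type, 8 to 11 and 7 to 9 in the evolved populations, and 0 to 2 lower for the change, with 0 without evolved 1, 3 or 8 and 2 without wild type 2, wild type 12 or evolved 6. Over all 5129 genes these ranges were 1412 to 1622 and 401 to 484 in the wild type and 1137 to 1246 and 672 to 793 in the evolved populations. For the change, 188 to 321 of all genes were lower. Under log2(RPM + 1) the changes of SWC3, BUD14, YAT1, SPC72 and KTD1 in the wild type and of FRT2, KTD1 and MST28 in the evolved populations grew by over 1.5 times. Of the calls of named genes under each alternative, 684 stayed and 76 lost significance. Leaving out single strains ended wild type calls of CLN3, ERV46, KIN3, BOL1 and AIM2 and evolved calls of ERP2, FUN12, PEX22 and KTD1.

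Depth limits scarce members most: 10 RPM stands for 6.81 reads at the median depth, 31 columns have no known depth, and the spread between repeats is not known.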
